A study of Mus musculus with 69 samples.

Results

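The T cell and checkpoint genes described here were 10 named transcripts of the kidney, chosen by symbol with earlier results of these data known, out of 24523 genes in the tables. They were Cd3d, Cd3e and Cd3g, which encode the signalling chains that sit with the T cell receptor, the coreceptors Cd4 and Cd8a, the costimulatory receptor Icos, the inhibitory receptors Ctla4 and Pdcd1, the regulatory T cell transcription factor Foxp3, and the granule protease Gzmb. All 10 were found in the tables.

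The kidneys came from female NZB/W F1 mice, a cross that develops lupus nephritis spontaneously with age, and each library was made from 1 mouse by poly(A) RNA-seq of the whole perfused kidney. The 30 young mice were 12 weeks old. The 27 nephritic mice were 30 to 45 weeks old with proteinuria above 300 mg/dl and were taken within weeks of its onset, before end-stage renal failure. Both groups were sampled at 6 Zeitgeber times (ZT), where lights came on at ZT0 and went off at ZT12, with 7, 4, 4, 7, 4 and 4 young mice and 7, 4, 4, 6, 3 and 3 nephritic mice at ZT0, 4, 8, 12, 16 and 20. The 8 remission mice, 36 to 50 weeks old, were formerly nephritic mice induced with 1 dose of cyclophosphamide at 50 mg/kg and 6 doses each of CTLA4Ig (200 ug) and an anti-CD40L antibody (250 ug) over 2 weeks. They were taken 8 weeks later with proteinuria at or under 30 mg/dl, with 4 labelled ZT0 and 4 labelled ZT12. The study's sample table lists 7 remission mice, and the 8 that the labels give were used. Age and nephritis cannot be told apart between the young and nephritic mice, and no label gives a sequencing run. The remission libraries were treated as a run of their own, together with 4 repeat libraries whose columns share their numbered names, although the sample table puts them in RNASeq set 2.

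A T cell recognises peptide on an MHC molecule through its receptor and passes the signal inward through the CD3 chains, with CD4 or CD8 binding the MHC molecule beside it. CD28 and ICOS add a second, activating signal. CTLA-4 and PD-1, the product of Pdcd1, oppose that signal: CTLA-4 competes with CD28 for CD80 and CD86, and CTLA4Ig, one of the agents given for remission, is a soluble fusion protein that binds the same ligands. In lupus nephritis T cells gather in the renal interstitium and around vessels, often beside B cells.

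The total gene count per library was 25257530 to 35744843 in young mice, 26596500 to 48075977 in nephritic mice and 13311278 to 21849912 in remission mice. Levels are given in CPM, the count scaled to the library total after TMM normalisation, and changes between groups as log2 differences from edgeR's quasi-likelihood test with Benjamini-Hochberg adjustment over all genes tested, where an adjusted p of at most 0.05 is called a change. Low counts limit the least abundant members: no Ctla4 read was counted in 3 of the 30 young mice, no Pdcd1 read in 5 and no Gzmb read in 3, where a count of 0 allows up to 3 counts, or 0.0983 to 0.120 CPM. Such a limit covers counting error only. Certain libraries stood apart. Nephritic mouse HIL5RU at ZT12 had the highest summed level of the Cd3 chains (73.3 CPM). Nephritic mouse RX11RU at ZT12 had 235 Ctla4 counts in its original library and 11 in a repeat library, and that repeat was nearest over all genes to another mouse, RX11LU at ZT4 (r = 0.9961), rather than to its own original (r = 0.9847). Remission mouse s9, labelled ZT12, had an Arntl level of 27.01 CPM against 3.20 to 4.89 CPM in the other ZT12 remission mice and 23.2 to 28.7 CPM at ZT0. Results that rest on these mice are also given without them.

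The genes lie in a few clusters of the mouse genome, here by the GRCm38.p6 assembly. Ctla4 (chromosome 1, 60909025 to 60915832) lies 44940 bases before Icos (60960773 to 61000322) and 135665 bases after Cd28. Cd3g, Cd3d and Cd3e lie together on chromosome 9, between 44969572 and 45009663, with 1337 bases from Cd3g to Cd3d and 11682 from Cd3d to Cd3e. Foxp3 on chromosome X (7579676 to 7595243) overlaps Ccdc22 and Flicr, and reads shared with them cannot be told apart because the sources used here do not state whether strand was used in counting. Promoter windows of 250 bases before and 50 bases after the start were in RefSeq's table for 8 of the 10 genes, all but Cd4 and Icos. The 4 below are shown because these genes gave the widest contrasts in the data: Ctla4 had the largest swing over the day, Pdcd1 the largest rise in nephritis, Cd3e stands for the T cell receptor chains and Cd8a had the smallest rise. Capitals mark GGAAA, the core bound by NFAT, the factor that T cell receptor signalling activates, or TTTCC, the same core on the other strand. They also mark TATAAA, the letters of a TATA box, wherever these stand in the window.
Ctla4, chr1:60908775-60909074, plus strand: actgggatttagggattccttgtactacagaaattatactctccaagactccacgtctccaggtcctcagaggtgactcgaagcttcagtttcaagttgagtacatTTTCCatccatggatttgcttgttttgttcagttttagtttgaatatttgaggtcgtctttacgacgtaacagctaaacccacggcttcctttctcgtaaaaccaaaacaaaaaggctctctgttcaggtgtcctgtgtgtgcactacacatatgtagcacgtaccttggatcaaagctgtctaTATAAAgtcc
Pdcd1, chr1:94052504-94052803, minus strand: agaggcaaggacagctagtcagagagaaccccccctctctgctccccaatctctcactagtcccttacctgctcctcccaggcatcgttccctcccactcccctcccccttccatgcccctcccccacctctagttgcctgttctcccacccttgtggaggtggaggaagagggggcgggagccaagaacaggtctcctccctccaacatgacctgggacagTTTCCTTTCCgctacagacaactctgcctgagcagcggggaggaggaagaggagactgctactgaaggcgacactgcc
Cd3e, chr9:45009562-45009861, minus strand: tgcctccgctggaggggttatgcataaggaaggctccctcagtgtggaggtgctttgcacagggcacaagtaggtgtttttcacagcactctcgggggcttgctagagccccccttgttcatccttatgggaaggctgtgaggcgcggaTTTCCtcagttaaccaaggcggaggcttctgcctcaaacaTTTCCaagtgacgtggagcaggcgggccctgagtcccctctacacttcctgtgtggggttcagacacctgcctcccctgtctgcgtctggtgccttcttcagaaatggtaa
Cd8a, chr6:71373177-71373476, plus strand: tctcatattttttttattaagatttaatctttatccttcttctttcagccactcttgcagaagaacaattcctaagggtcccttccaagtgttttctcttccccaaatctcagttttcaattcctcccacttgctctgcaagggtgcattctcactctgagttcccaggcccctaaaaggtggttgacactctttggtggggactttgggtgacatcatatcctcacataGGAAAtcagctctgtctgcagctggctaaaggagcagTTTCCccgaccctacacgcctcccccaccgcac
At least 1 NFAT core, on either strand, stood in the windows of 7 of the 8 genes, and in 61.3% of all 32851 promoter windows of that length. TATAAA stood in 2 of the 8, those of Ctla4 and Foxp3, against 13.6% of all windows. It began at position 41 after the start in Ctla4 and 32 bases before the start in Foxp3. The clock elements CACGTG (E-box) and TTATGTAA (D-box), searched on both strands, stood in none of the 8 windows, against 7.15% and 0.938% of all. AGGTCA, the core bound by nuclear receptors such as the clock repressor REV-ERB, searched on both strands, stood in 2 of the 8, against 16.3% of all. A match is a string of letters in this window and nothing more.

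All 10 genes were higher in nephritic than in young kidneys. Of the 17521 genes tested, 62.1% were called, 28.1% higher and 33.9% lower, and the median log2 change was 2.61 over the 10 genes against -0.03 over all genes tested. Pdcd1 and Gzmb, with 75 and 77 counts over the 30 young mice, reached the minimum of 100 counts for the test through the nephritic mice, so for them only a rise could be seen. In bulk kidney RNA, more T cells and more RNA per T cell cannot be told apart. The rise was held by all 10 genes under every alternative tried and when any 1 of the 57 mice was left out.

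The 3 CD3 chains rose by 4.14 to 7.46-fold. Cd3e lay between 0.495 and 1.40 CPM in young mice (median 0.895) and between 1.13 and 23.6 CPM in nephritic mice (median 3.59). The groups overlapped only at their edges, with 26 of 27 nephritic mice above the highest young mouse. Cd3e was higher by 2.05 on the log2 scale (SE 0.18, adjusted p = 4.84e-14), Cd3d by 2.85 (SE 0.24) and Cd3g by 2.90 (SE 0.20).

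The coreceptors moved by different amounts. Cd4, which marks helper and regulatory T cells and is also made by some macrophages and dendritic cells, went from a median of 1.31 CPM (0.802 to 1.86) in young mice to 6.70 CPM (1.69 to 33.5) in nephritic mice, a log2 change of 2.37 (SE 0.15), and 26 of 27 nephritic mice exceeded every young mouse. Cd8a, the alpha chain of the CD8 coreceptor of cytotoxic T cells, went from a median of 3.46 CPM (1.59 to 9.77) to 5.74 CPM (3.73 to 15.3). The Cd8a ranges overlapped almost wholly, with 1 nephritic mouse above the highest young mouse, and its log2 change of 0.70 (SE 0.13, adjusted p = 4.72e-06) was the smallest of the 10. Cd8b1, the beta chain of the same coreceptor and not among the 10 genes, rose by 3.27 (SE 0.26), from 0.216 to 2.35 CPM on average, so the 2 chains of CD8 did not change by the same amount.

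The inhibitory receptors rose most. Pdcd1 had between 0 and 7 counts in young mice (0 to 0.230 CPM, median 0.0995) and between 8 and 319 in nephritic mice (0.243 to 10.02 CPM, median 1.65). It was the only one of the 10 genes whose ranges did not overlap, and its log2 change was 4.30 (SE 0.28, 19.7-fold). How many of all genes tested had ranges that did not overlap was not counted. Ctla4 lay between 0 and 0.542 CPM in young mice (median 0.1003) and between 0.232 and 8.87 CPM in nephritic mice (median 1.14). It rose by 3.79 (SE 0.28, 13.8-fold), yet 6 of the 27 nephritic mice stayed within the young range, more than for any of the CD3 chains. The top of that range was 1 young mouse at ZT20 with 18 counts, and at the other times no young mouse exceeded 0.271 CPM.

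The other 3 genes rose by amounts between those. Icos lay between 0.124 and 1.14 CPM in young mice (median 0.544) and between 0.664 and 14.4 CPM in nephritic mice (median 2.52), a log2 change of 2.36 (SE 0.19). Foxp3 went from a median of 0.241 CPM (0.0826 to 0.566) to 0.785 CPM (0.133 to 4.87), a log2 change of 1.93 (SE 0.20), with 20 of 27 nephritic mice above every young mouse. Gzmb, which cytotoxic T cells and natural killer cells release to kill a target cell, had 0 to 6 counts in young mice and 5 to 65 in nephritic mice and rose by 3.03 (SE 0.24).

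**Figure D1:**
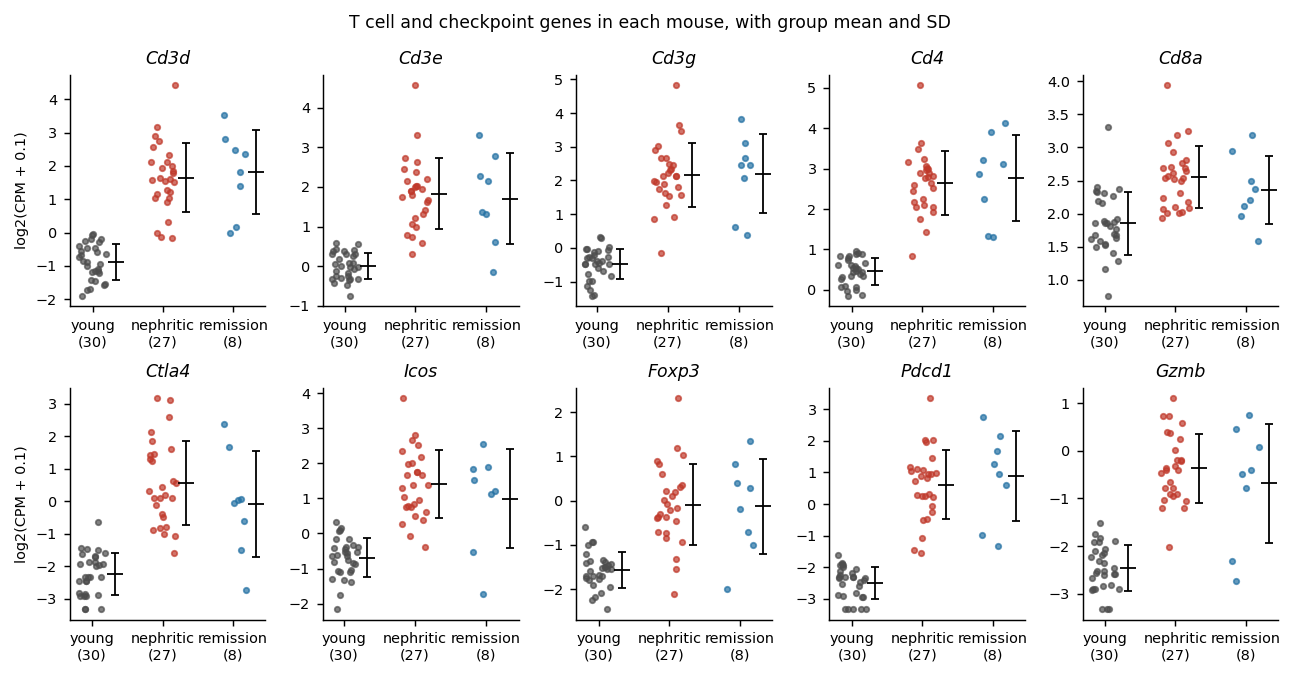
Level of each of the 10 genes in every young (n = 30), nephritic (n = 27) and remission (n = 8) mouse, on the log2(CPM + 0.1) scale, with 1 point per mouse. The ranges of nephritic and remission mice overlap for all 10 genes, and Pdcd1 is the gene whose nephritic points all lie above the young ones.

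The wider T cell programme rose with them. Of 18 genes of the T cell receptor complex and its signalling with a test, all 18 were higher (median log2 change 2.48), among them Cd2, an adhesion receptor (3.40), Il7r, the interleukin 7 receptor (3.22), and Lck and Zap70, the kinases that start receptor signalling (2.49 and 2.39). The T cell receptor constant genes Trac, Trbc1 and Trbc2 were not analysed here. All 13 costimulation and checkpoint receptors were higher (median 2.12), led by Slamf6 (4.78), Tnfrsf9 (3.36) and Tigit (3.30). Slamf6 and Tigit were under the minimum of 100 counts in young mice alone, so for them only a rise could be seen. All 12 of their ligands with a test were also higher (median 1.02), led by the PD-1 ligand Pdcd1lg2 (3.83), Tnfsf4 (2.98) and the CTLA-4 and CD28 ligand Cd80 (2.32). These 3 ligands, at 0.0354, 0.0101 and 0.0795 CPM on average in young mice, were under the minimum of 100 counts in young mice alone and entered the comparison through the nephritic mice, so for them too only a rise could be seen.

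Subset genes were less uniform. Of 8 regulatory T cell genes, 7 were higher and 1, Ikzf4, was lower (-0.33), and the largest rise was that of the cytokine Il10 (4.99). Of 15 helper subset genes tested, 11 were higher and 2 lower. Those higher included Il21, the cytokine of follicular helper T cells (4.58), and Cd44, an adhesion receptor of activated cells (3.07). Of 10 cytotoxic granule genes 9 were higher, with Gzmk (3.99), Cst7 (3.07) and Nkg7 (2.36) ahead of Prf1 (1.54), which encodes perforin. Il10, Il21, Gzmk and Cst7 were under the minimum count for the test in young mice alone. They entered the comparison through the nephritic mice, so for them too only a rise could be seen.

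Other cell types moved with the T cell genes. All 7 B cell markers were higher, among them Ms4a1 (5.01) and Cd79a (4.76), and their summed level was 2.28 to 26.5 CPM in young mice and 10.1 to 390 CPM in nephritic mice. Of 6 plasma cell markers 5 were higher, led by Pou2af1 (5.62), with summed levels of 25.6 to 70.0 CPM and 44.9 to 2612 CPM. All 9 macrophage markers were higher, led by Itgam (4.46), with summed levels of 123 to 265 CPM and 316 to 2182 CPM. The part of these cells in the rise of shared genes such as Cd4 was not tested. Natural killer cell markers rose in 5 of 5 tested, by a median of 1.02, and their sum reached 8.70 CPM at most. Klra8 had no count in any mouse. Of 8 dendritic cell markers 6 were higher, of 7 mast cell and neutrophil markers 2 were higher, and of 5 markers of lymphoid stroma and high endothelial venules 4 were higher, led by Glycam1 (6.23), Cxcl13 (4.82) and Ccl19 (3.05). Glycam1 and Ccl19 were under the minimum count for the test in young mice alone, so only a rise could be seen in them. Among 9 kidney markers 2 were higher and 4 lower, with Lrp2, the megalin gene of the proximal tubule, at -0.94.

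Setting each gene against the CD3 chains of the same mouse gave a second view of the same libraries. For 7 genes the count was divided by the summed Cd3d, Cd3e and Cd3g counts and the log2 ratios of nephritic and young mice were compared by a two-sided permutation test of 100000 resamples, adjusted over the 7 genes. In young mice 174 Cd8a counts were found per 100 Cd3 counts (geometric mean), and in nephritic mice 52.9, a log2 difference of -1.72 (adjusted permutation p = 3.5e-05, which rests on the smallest p the resamples can give). Pdcd1 went the other way, from 4.10 to 12.95 per 100 Cd3 counts (log2 ratio higher by 1.66, adjusted permutation p = 3.5e-05). Ctla4 rose from 5.55 to 12.4 per 100 (higher by 1.16, adjusted permutation p = 0.000315). Relative to the CD3 chains, then, nephritic kidneys held more of both inhibitory receptors and less Cd8a. The other CD8 chain, Cd8b1, was not put through this ratio test. Its log2 rise in nephritis (3.27) was above those of the CD3 chains (2.05 to 2.90). The lower Cd8a ratio is therefore not shown to be a result about CD8 T cells.

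Foxp3 was lower relative to the CD3 chains, at 12.3 per 100 Cd3 counts in young and 7.62 in nephritic mice (log2 ratio -0.69, adjusted permutation p = 0.000117). The ratios of Cd4 (63.8 and 56.7 per 100, log2 difference -0.17, adjusted permutation p = 0.097) and Icos (26.1 and 23.2 per 100, log2 difference -0.17, adjusted permutation p = 0.331) did not pass the test. Gzmb (4.38 and 6.20 per 100) missed it at 0.50 (adjusted permutation p = 0.0591) and passed in the larger sequencing set alone at 0.70 (adjusted permutation p = 0.0145), where 5 of the 7 ratios passed instead of 4. Because young counts of Ctla4, Pdcd1 and Gzmb were close to 0, their ratios depend on the 0.5 count added before the log: with 2 added, the log2 differences were 0.58 for Ctla4, 0.93 for Pdcd1 and -0.12 for Gzmb.

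**Figure D2:**
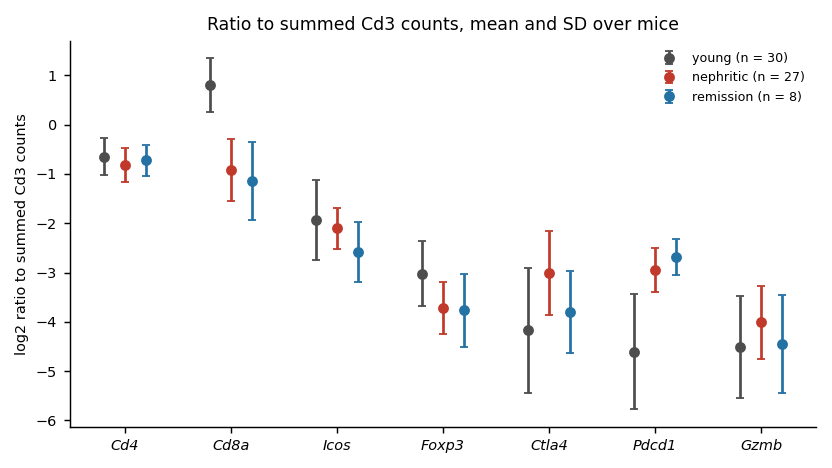
Mean and SD over mice of the log2 ratio of 7 genes to the summed Cd3 counts of the same mouse, in young (n = 30), nephritic (n = 27) and remission (n = 8) kidneys. Cd8a is lower in nephritic than in young mice (-0.92 against 0.80), Pdcd1 is higher (-2.95 against -4.61), and Cd4 lies between -0.82 and -0.65 in the 3 groups.

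Within the nephritic group the T cell genes rose and fell together from mouse to mouse. Over the 27 mice the log2 level of Cd4 followed the log2 level of the summed Cd3 chains with Pearson's r = 0.938 and Spearman's rho = 0.922, and Pdcd1 with 0.936 and 0.913 (adjusted permutation p = 1.5e-05 for each r and rho, from the smallest p the resamples can give). Icos (0.914 and 0.903), Foxp3 (0.865 and 0.805), Cd8a (0.828 and 0.785) and Ctla4 (0.795 and 0.794) followed at the same adjusted permutation p. Gzmb was the loosest of the 7 (0.672 and 0.707, adjusted permutation p = 0.000206 and 9e-05). These points share a library and its depth.

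The relation did not rest on the extreme mice. Without the 2 mice farthest from the median, HIL5RU at 73.3 CPM and RX7LU at 2.72 CPM, r was 0.876 for Cd4, 0.900 for Pdcd1, 0.859 for Icos, 0.752 for Foxp3, 0.741 for Cd8a, 0.717 for Ctla4 and 0.558 for Gzmb, and all 7 passed. Within the 22 mice of the larger sequencing set r was 0.907 for Cd4 and 0.798 for Ctla4. With the mean of each time point removed it was 0.919 for Cd4, 0.678 for Ctla4 and 0.486 for Gzmb. The tie to 2 injury genes was weaker. Vcam1, an adhesion molecule, gave r = 0.434 and rho = 0.354 (adjusted permutation p = 0.0254 and 0.0794), with r = 0.216 without the 2 mice and 0.366 in the larger set, neither of which passed. With the mean of each time point removed, r was 0.381 and rho 0.408 (adjusted permutation p = 0.0559 and 0.0408). Lcn2, a tubular injury marker, gave r = 0.323 and rho = 0.201 (adjusted permutation p = 0.0997 and 0.313).

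**Figure D3:**
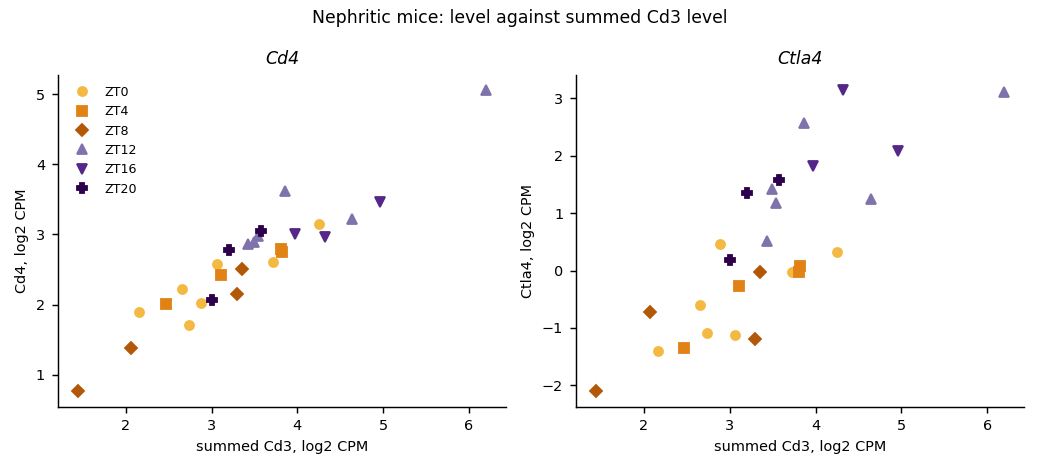
Log2 CPM of Cd4 (left) and Ctla4 (right) against log2 CPM of the summed Cd3 chains in the 27 nephritic mice, with 1 symbol per mouse, coloured by Zeitgeber time. Cd4 falls close to a line at all times (r = 0.938), whereas Ctla4 at ZT12, ZT16 and ZT20 mostly lies above the ZT0, ZT4 and ZT8 mice of like Cd3 level.

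By Pearson's r of log2 CPM over the 27 nephritic mice and 16862 genes, the pattern most like that of Ctla4 was that of Cd69, an early activation antigen of lymphocytes (0.906), followed by Rgs1 (0.900), Gpr171 (0.900), P2ry10 (0.894) and Dusp2 (0.893). The pattern most like that of the summed Cd3 chains was that of Lat, the adaptor of T cell receptor signalling (0.981), followed by Rac2 (0.979), Ltb (0.976), Tbc1d10c (0.976) and Ptprcap (0.973). The 2 lists of 5 shared no gene.

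In nephritic kidneys the level of T cell genes differed between times of day. Over the 6 time points 9 of the 10 genes passed the test, where 21.6% of the 16872 genes tested passed. Ctla4 had the smallest adjusted p (0.000771), followed by Icos (0.00314), Cd3g (0.0103), Foxp3 (0.0105), Cd3e (0.0119), Cd4 (0.0171), Cd3d (0.0215), Pdcd1 (0.0314) and Cd8a (0.0461). Gzmb did not pass (0.117), though it did so without mouse RX10RU (0.0145). Each of the 10 genes had its highest mean at ZT12 or ZT16, and all but Cd8a, whose lowest mean was at ZT0, had the lowest at ZT8.

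Ctla4 moved most. Its level had a lowest, median and highest value of 0.380, 0.657 and 1.37 CPM in the 7 mice at ZT0, was 0.828, 1.05, 0.981 and 0.392 CPM at ZT4, and 0.232, 0.607, 0.980 and 0.439 CPM at ZT8. It was 1.42, 2.52 and 8.63 CPM (lowest, median and highest) in the 6 mice at ZT12, 3.55, 4.25 and 8.87 CPM at ZT16, and 1.14, 2.56 and 2.96 CPM at ZT20. Of the 12 mice from ZT12 to ZT20, 11 were above every one of the 15 mice from ZT0 to ZT8, and the exception was a ZT20 mouse. The mean at ZT16 (5.56 CPM) was 9.84 times that at ZT8 (0.565 CPM), on 125 to 297 counts against 7 to 35.

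The summed CD3 chains swung less. They lay between 4.47 and 19.04 CPM at ZT0 (median 7.38), between 2.72 and 10.2 CPM at ZT8, between 10.8 and 73.3 CPM at ZT12 (median 13.1) and at 15.7, 19.9 and 31.1 CPM at ZT16. By ZT20 they were back at 8.02, 9.22 and 11.9 CPM, within the range of the light phase. Of the 12 mice from ZT12 to ZT20, 4 exceeded all 15 mice from ZT0 to ZT8. The ZT12 mean (24.4 CPM) was 3.63 times the ZT8 mean. Without mouse HIL5RU, a setting chosen after seeing the data, it was 14.6 CPM and 2.17 times the ZT8 mean, and the highest mean was then that of ZT16 (22.2 CPM, 3.30 times ZT8).

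Icos lay between Ctla4 and the CD3 chains. Its 6 mice at ZT12 ran from 3.06 to 14.4 CPM (median 4.72) and its 4 mice at ZT8 were at 0.664, 0.850, 2.52 and 1.61 CPM, so that the ranges did not overlap. The ratio of the highest to the lowest time mean was 4.46 for Icos, 5.43 for Foxp3, 4.71 for Pdcd1, 3.59 for Cd4, 2.40 for Gzmb and 1.65 for Cd8a. Without HIL5RU these ratios were 3.59, 3.94, 3.44, 2.48, 2.40 and 1.60 in the same order, each then highest at ZT16, and that of Ctla4 stayed at 9.84. A 24 h cosine fitted to log2 CPM had an amplitude of 1.57 (SE 0.24) with its peak at ZT15.7 for Ctla4, 0.91 (SE 0.20) at ZT14.7 for Icos and 0.72 (SE 0.21) at ZT15.0 for the summed CD3 chains.

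**Figure D4:**
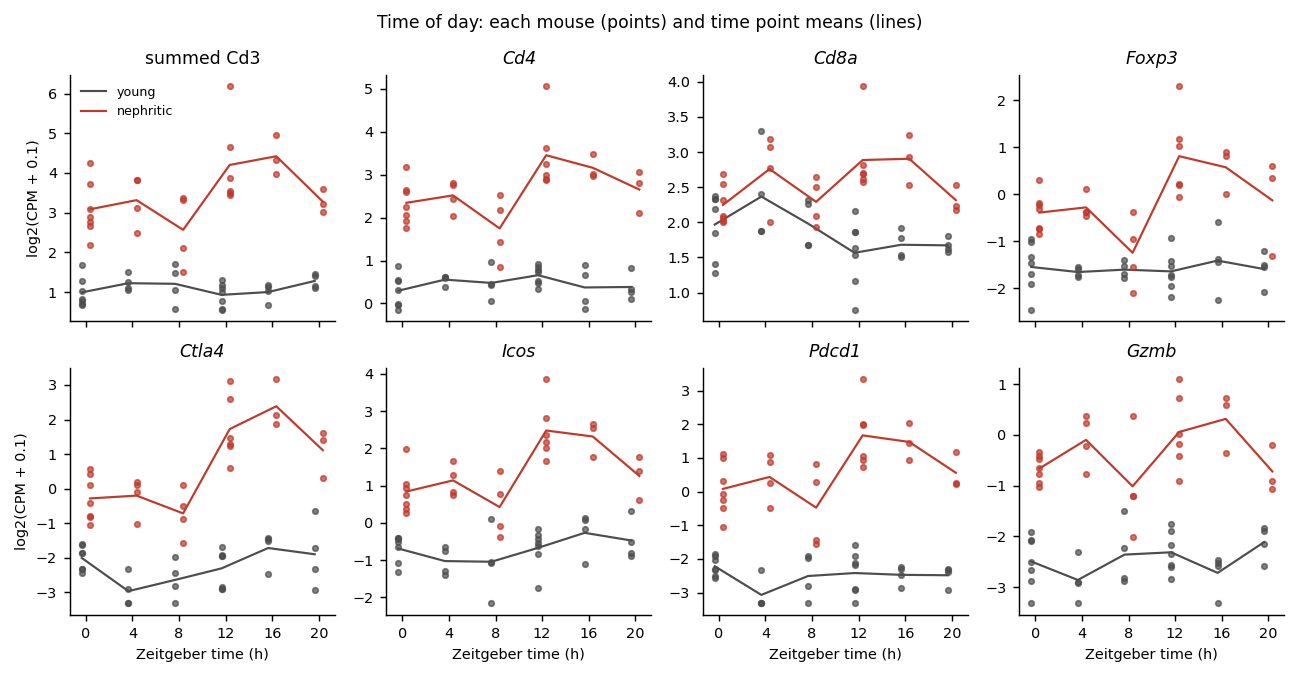
Level on the log2(CPM + 0.1) scale against Zeitgeber time for the summed Cd3 chains and 7 genes, with 1 point per mouse and a line through the time point means, young in grey and nephritic in red. In nephritic mice Ctla4 is highest at ZT16 (mean 5.56 CPM) and lowest at ZT8 (0.565 CPM), while the Cd8a line moves least.

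How firm these calls were differed by gene. When any 1 of the 27 mice was left out the count of genes past the test ranged from 6 to 10, and Ctla4 (adjusted p at most 0.0022) and Icos (at most 0.0075) passed each time. Cd8a failed in 20 of the 27 refits, Pdcd1 in 5 (without CRS6LL, HIL5RU, RX11RU, RX8LL or RX9RU) and Cd3d in 1 (without RX9RU). Without both HIL5RU and RX11RU, a setting chosen after seeing the data, 6 of the 10 passed, where 16.5% of all genes did. Cd4 (0.0536), Pdcd1 (0.114) and Cd8a (0.0910) were the calls lost. Fitted as a cosine instead of 6 free means, Ctla4 (0.00091) and Icos (0.0142) were the 2 of the 10 that passed, where 2.15% of all genes did. With ZT0 and ZT12 alone, a setting not planned before the data were seen, none of the 10 passed (Ctla4 0.112, Icos 0.096). In that fit 12 of 16076 genes, or 0.0746%, passed.

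Because the CD3 chains moved too, Ctla4 was also read per CD3. In the mice of ZT0, ZT4 and ZT8 the geometric mean was 8.65, 7.86 and 8.82 Ctla4 counts per 100 Cd3 counts, and at ZT12, ZT16 and ZT20 it was 17.5, 24.0 and 21.5. Per mouse the ratio ran from 4.62 to 18.8 in the first 3 and from 9.55 to 44.6 in the last 3, so the ranges overlapped. With the log2 level of the summed Cd3 chains as a covariate in the edgeR test over time points, Ctla4 (adjusted p = 0.0365) and Cd4 (adjusted p = 0.0445) passed among the 7 genes outside the CD3 chains, while Icos (adjusted p = 0.0716) did not. In that fit 13% of the 16872 genes passed.

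**Figure D5:**
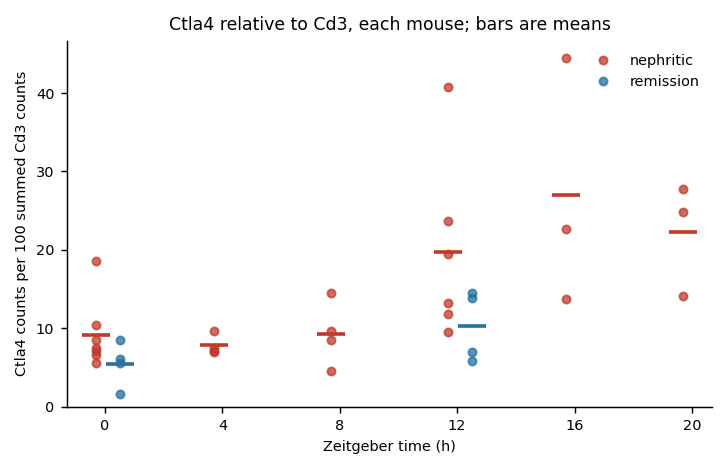
Ctla4 counts per 100 summed Cd3 counts in each nephritic and remission mouse by Zeitgeber time, with 1 point per mouse. In nephritic mice the geometric mean is 7.86 to 8.82 at ZT0 to ZT8 and 17.5 to 24.0 at ZT12 to ZT20. Remission mice s9 and s10, both labelled ZT12, lie at 5.80 and 6.94, within the range of the ZT0 remission mice (1.59 to 8.45).

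Among other genes of nephritic kidneys, 15 of 18 T cell receptor genes, 8 of 13 costimulation and checkpoint receptors, 3 of 11 of their ligands, 3 of 8 regulatory, 7 of 15 helper and 4 of 10 cytotoxic genes differed over time points, against 21.6% of all genes tested. So did 6 of 7 B cell and 5 of 6 plasma cell markers, but 0 of 9 macrophage, 0 of 8 dendritic cell, 0 of 5 natural killer cell markers and 0 of 4 injury genes. The summed B cell markers had a median of 22.1 CPM at ZT8 (10.1 to 50.5) and 120 CPM at ZT16 (71.1 to 142), and the summed macrophage markers 386 CPM (316 to 1342) and 857 CPM (854 to 1287). Markers of perirenal fat and adrenal tissue, which can be carried along at dissection, passed in 5 of 6, with a summed median of 14.6 CPM at ZT4 and 86.0 CPM at ZT16. Their part in the time pattern of the T cell genes was not tested. Of 9 kidney markers 1 passed, of 5 lymphoid stroma markers 2, of 7 mast cell and neutrophil markers 2, and of 4 clock genes all 4.

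In young kidneys no member passed the test over time points. Of the 10 genes 8 could be tested, with Pdcd1 (75 counts in all) and Gzmb (77) under the minimum of 100 counts, and 0 of the 8 passed by edgeR against 39.8% of the 16521 genes tested. At an unadjusted p under 0.05 there were 2, Ctla4 (adjusted p = 0.0795) and Cd8a (adjusted p = 0.0977). DESeq2 called Cd8a (adjusted p = 0.0464), and a cosine called both (Ctla4 0.0173, Cd8a 0.0234). Young Ctla4 had 0, 0, 1 and 3 counts in the 4 mice at ZT4, 0, 1, 2 and 4 at ZT8, 2, 7, 7 and 8 at ZT16 and 1, 3, 6 and 18 at ZT20. The young Ctla4 pattern thus rests on a handful of reads. Of the other lists 3 of 18 T cell receptor genes, 0 of 10 costimulation and checkpoint receptors and 5 of 13 helper genes passed in young mice.

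Whether the time pattern itself differed between nephritic and young mice was tested with an interaction term. Of the 10 genes 2 passed, Cd3g (adjusted p = 0.0467) and Cd3d (adjusted p = 0.0478), against 6.27% of the 17521 genes tested, while Cd3e (0.0591), Foxp3 (0.0624), Cd8a (0.0675), Icos (0.0721) and Ctla4 (0.0727) lay just above the threshold. These 2 calls were fragile. DESeq2 called 7 of the 10, where it called 12.5% of all genes. In 6 other settings 0 of the 10 were called, where 0.691% to 5.59% of all genes were. Over all 8 alternatives, the larger sequencing set alone among them (9.89% of all genes), the count ran from 0 to 7. Leaving out 1 mouse lost Cd3d in 42 and Cd3g in 41 of 57 refits. The larger swing of Ctla4 in nephritic mice is therefore not shown to differ from the pattern of young mice, in which its mean also ran from 0.0333 CPM at ZT4 to 0.219 CPM at ZT20.

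In remission the T cell genes were not detectably different from nephritis. Against the 13 nephritic mice of ZT0 and ZT12, 0 of the 10 genes passed by edgeR in the 8 remission mice, where 31.1% of the 16344 genes tested passed, and none did by DESeq2. None of the 10 had an unadjusted p under 0.05. The intervals of the differences were wide: the log2 change was 0.83 for Cd3d (95% interval 0.03 to 1.63), 0.38 for Cd3e (-0.36 to 1.12), 0.35 for Cd4 (-0.35 to 1.04), -0.32 for Ctla4 (-1.34 to 0.71) and 0.63 for Pdcd1 (-0.29 to 1.56). The narrowest was that of Cd8a, at -0.03 (-0.43 to 0.38). Such intervals do not show that the groups were alike. Without the term for the sequencing set, the log2 change was -0.02 for Cd3d, -0.25 for Cd3e and -0.03 for Cd4, so no direction is given for them.

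The summed Cd3 level varied widely among remission mice. It was 3.14, 8.99, 11.3 and 16.5 CPM in mice s1, s3, s4 and s8 at ZT0, and 3.64, 14.8, 22.3 and 35.2 CPM in s10, s9, s12 and s14 at ZT12. All 8 were above the young median of 2.03 CPM, and s1 and s10 were near the young maximum of 3.18 CPM. Without s10, Cd3d (adjusted p = 0.0414) and Cd3g (adjusted p = 0.0425) passed as higher in remission than in nephritis.

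Per CD3, no ratio of remission against nephritis passed the exact permutation test adjusted over 7 genes. Remission kidneys had 7.17 Ctla4 counts and 16.7 Icos counts per 100 Cd3 counts, and the log2 ratio, remission minus nephritic at the same times, was -0.74 for Ctla4 (exact permutation p = 0.0615, adjusted 0.215) and -0.54 for Icos (exact permutation p = 0.0361, adjusted 0.215). For Cd4, Cd8a, Foxp3, Pdcd1 and Gzmb the log2 differences, remission minus nephritic, were 0.03, -0.07, -0.21, 0.19 and -0.35. In an edgeR fit with the log2 level of the summed Cd3 chains as a covariate, added after these values were seen, Ctla4 (-1.23, adjusted p = 0.0041) and Icos (-0.86, adjusted p = 0.0061) passed as lower in remission, 2 of the 7 genes, where 36% of the 16344 genes tested passed. Without that covariate but with a run term set by the 4 repeats, the log2 change was 0.11 for Ctla4 and 0.23 for Icos, and neither passed.

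Elsewhere in the T cell lists little separated remission from nephritis. Of 18 T cell receptor genes 1 passed, Skap1, an adaptor protein, which was higher (0.84, adjusted p = 0.0221), and of 13 costimulation and checkpoint receptors none did. Of 15 helper genes 1 passed, Cd44, which was lower (-1.24, adjusted p = 0.0353), and it is also made by injured tubules and by other leukocytes. No regulatory or cytotoxic gene passed, 2 of 11 ligands did, 1 in each direction, and 1 each of the B cell (of 7), plasma cell (of 6), macrophage (of 9), dendritic cell (of 8) and natural killer cell (of 4) markers did. Of 4 injury genes, 2 were lower, Timp1 with a log2 change of -2.28 (adjusted p = 0.0312) and Vcam1 with -1.60 (adjusted p = 0.0355), while Lcn2 at -2.16 did not pass (adjusted p = 0.0816). If the remission libraries were a run of their own, that run and the treatment cannot be told apart in these fits.

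Against young kidneys the T cell genes of remission were still high. Of the 10 genes 9 passed as higher than in the 14 young mice of ZT0 and ZT12, where 51.7% of the 15982 genes tested passed and 26% were higher. The log2 change was 4.46 for Pdcd1 (SE 0.57), 3.23 for Ctla4 (SE 0.63), 3.19 for Cd3d (SE 0.45), 2.45 for Cd4 (SE 0.31), 2.26 for Icos (SE 0.43) and 2.14 for Foxp3 (SE 0.43). Pdcd1, Ctla4 and Gzmb were under the minimum count for the test in those young mice alone. They entered this comparison through the remission mice, so for them only a rise could be seen. Against all 30 young mice the ranges did not overlap for Cd3d, Cd3g, Cd4 and Pdcd1, and this too was not counted over all genes. Cd8a missed the threshold at 0.55 (95% interval 0.06 to 1.04, adjusted p = 0.0727) and passed by DESeq2 (adjusted p = 0.0490). The nephritic and remission comparisons share young mice.

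The time of day in remission could be read at 2 times only. Ctla4 had 1, 12, 12 and 18 counts in the 4 ZT0 mice (0.0499, 0.550, 0.958 and 0.920 CPM) and 5, 13, 66 and 94 counts in the ZT12 mice s10, s9, s12 and s14 (0.253, 0.856, 3.10 and 5.10 CPM). The 2 highest values were at ZT12 and the ranges overlapped. The log2 difference, ZT12 minus ZT0, was 1.95 (SE 0.89, adjusted p = 0.503 by edgeR), and without s9 it was 2.21 (adjusted p = 0.274). None of the 10 genes passed in any setting, but neither did any of the 14451 genes tested by edgeR (1449 had an unadjusted p under 0.05), while DESeq2 called 24 genes and edgeR without s9 called 202. The nephritic mice of ZT0 and ZT12 taken alone gave no call for Ctla4 either.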

How the data were processed

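Gene counts of 65 original libraries from 65 mice were used, and 4 repeat libraries entered only as checks. The authors sequenced oligo-dT selected RNA of perfused whole kidneys as 150 bp paired reads, aligned them to the mm10 mouse genome and deposited raw counts of uniquely aligned reads per gene symbol. The study's methods name a Burrows-Wheeler aligner and the submitters' processing notes name HISAT. Uniquely aligned reads understate genes with near-identical copies. No strand setting is given in the sources used here. Of 24538 symbols, 15 had empty cells in every library and were left out.

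The 10 genes and the lists were chosen with earlier results of these data known. Groups and times come from the labels. Counts were tested with edgeR 4.0.16 (R 4.3.3; TMM, quasi-likelihood F test, genes with at least 100 counts over the libraries of a fit, Benjamini-Hochberg over all genes tested, threshold 0.05). Covariates were time point and RNASeq set. Set 1 held 6 young and 5 nephritic mice, all at ZT0 or ZT12. Sets were taken from the sample names and the study's sample table, since no label gives them, and the run of the remission and repeat libraries was inferred from their names. Fits of remission carried an indicator of set 1. Intervals are 1.96 SE either side, which is somewhat too narrow where a fit has few mice. Log2 CPM used a prior count of 2. Ratios to Cd3 added 0.5 count. Permutation tests were written with NumPy 2.4.6, exact where a group had under 10 mice. Their adjustment and the correlation coefficients came from SciPy 1.17.1. Alternatives were DESeq2 1.42.0, RLE size factors, no filter, no set term, set 2 alone, repeats in place of originals, a cosine, a Cd3 covariate and leaving out each mouse. Named genes were all 10, from each list up to 3 with the largest nephritic change, T cell list genes past the time test and the 5 most alike, and others are named from among these. Only the edgeR test was tried on simulated counts, and for some of the comparisons. Promoter windows and gene positions are RefSeq's for GRCm38.p6, a patch release of the assembly called mm10, and were not tied to the authors' annotation.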

Additional observations from a re-analysis of the deposited data

Results flagged for a closer look

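Among 120 combinations of gene, group and time with 4 to 10 mice, 10 held a mouse whose gap to the rest exceeded the 95% critical value of Dixon's test, where chance gives about 1 in 20. In the 6 nephritic mice at ZT12, mouse HIL5RU was the highest for Cd3e (23.6 CPM, others 3.59 to 6.58), Cd4 (33.5 CPM, others 7.27 to 12.2) and Cd8a (15.3 CPM, others 5.85 to 6.91). It also had the highest summed Cd3 level of all mice and B cell markers summing to 390 CPM, so 3 of the 10 gaps came from 1 mouse with high lymphocyte genes of several kinds. Nephritic mouse RX11RL at ZT4 was the highest for Foxp3 (0.981 CPM, others 0.628 to 0.672).

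The other 6 gaps were in young mice at low counts. They were Cd4 in ZT4RL (1.205 CPM, lowest, others 1.40 to 1.44), Ctla4 in ZT16LU (0.0808 CPM, lowest, others 0.251 to 0.271), Icos in ZT12RU (0.195 CPM, lowest, others 0.460 to 0.788), Pdcd1 in ZT200 (0.0314 CPM, lowest, others 0.0903 to 0.102), Pdcd1 in ZT4RL (0.1004 CPM, highest, the others at 0) and Gzmb in ZT16RU (0 CPM, lowest, others 0.0677 to 0.0808). The time pattern of Cd3d (adjusted p of the interaction by edgeR 0.0478) and Cd3g (0.0467) differed between nephritic and young mice by a test of the difference itself. Leaving out 1 mouse lost the call of Cd3d in 42 and of Cd3g in 41 of 57 refits. In 6 other settings none of the 10 genes was called, where 0.691% to 5.59% of all genes were.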

How the results depend on the processing

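The rise of all 10 genes in nephritis was kept under all 7 alternatives and in all 57 fits without 1 mouse (10 to 10 genes called). Over young time points the count was 0 as reported, 1 by DESeq2 (46.1% of all genes) and 1 in set 2 alone (35.2%). It was 2 with a cosine (39.8%) and 0 to 1 without 1 mouse. Over nephritic time points it was 9 as reported, 2 with a cosine (2.15% of all genes) and 0 with ZT0 and ZT12 alone (0.0746%). It was 2 of 7 with the Cd3 covariate (13%) and 6 to 10 without 1 mouse. For a different time pattern it was 2 as reported, 7 by DESeq2 (12.5% of all genes) and 0 to 4 without 1 mouse. It was 0 with RLE size factors, without the filter, without the set term and with a cosine. It was also 0 with the Cd3 covariate and without HIL5RU and RX11RU. In these settings with none, 0.691% to 5.59% of all genes passed. Over all 8 alternatives for a different time pattern, set 2 alone among them (9.89% of all genes), the count ran from 0 to 7. For remission against nephritis the count was 0 as reported, 2 of 7 with the Cd3 covariate (36% of all genes) and 0 to 2 without 1 mouse. Against young mice it was 9 to 10 without 1 mouse, and for ZT0 against ZT12 in remission 0 to 0. The count of ratios past the test in remission was 0 to 0 without 1 mouse. Fewer genes tested or fewer mice were part of some of these settings, and otherwise the cause was not tested. The ratios of nephritic to young mice past the test numbered 4 to 5 with the settings tried. Some settings were not planned before the data were seen. For remission these were no set term, the Cd3 covariate and nephritic mice of set 2 alone. Elsewhere they were ZT0 and ZT12 alone, the Cd3 covariate for a different time pattern, and repeats in place of originals over nephritic time points. Leaving out HIL5RU and RX11RU was another. No paired analysis was possible because the labels give no replicate numbers that the groups share.

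Directions that turned were all among differences that passed no test. For remission against nephritis the log2 change became 0.0041 for Icos by DESeq2 and 0.12 without HIL5RU and RX11RU. Without s9 it became 0.018 for Cd8a, 0.075 for Icos and -0.12 for Gzmb. Without the set term it became -0.022 for Cd3d, -0.25 for Cd3e, -0.072 for Cd3g, -0.027 for Cd4, -0.21 for Foxp3 and -0.051 for Gzmb. With the Cd3 covariate it became -0.18 for Cd4, -0.34 for Foxp3, -0.14 for Pdcd1 and -0.44 for Gzmb. With a run term set by the 4 repeats it became -0.0015 for Cd3e, -0.10 for Cd4, 0.11 for Ctla4 and 0.23 for Icos, and with the 3 repeats that match their originals -0.18 for Cd3e, -0.37 for Cd4 and -0.25 for Foxp3. The Gzmb ratio to Cd3, nephritic against young, became -0.12 with 2 counts added. Among all values of single genes under an alternative, 494 kept direction and call, 45 lost the call, 16 gained it and 23 turned.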

Other observations

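The 4 repeat libraries, whose columns are named in the same numbered way as those of the remission mice, were compared with their originals. Those of ZT0LU, ZT12RU and RX12RU were each nearest over all genes to their own original (r = 0.9965, 0.9976 and 0.9961), and that of RX11RU was not. In RX11RU, Icos was 6.96 CPM in the original and 1.89 CPM in the repeat, and Pdcd1 was 3.94 and 0.792 CPM, so all 3 receptors, Ctla4 included, were lower in the repeat. Dbp and Per2 in remission mouse s9 were 7.90 and 10.3 CPM, against 74.4 to 122 and 41.0 to 74.1 CPM in the other ZT12 remission mice and 6.90 to 15.6 and 8.13 to 13.9 CPM at ZT0. Neither mismatch was resolved from the files.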
